A study of Mus musculus with 8 samples.

Results

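Cluster 2 is the smallest of 3 groups into which the authors sorted single mouse neutrophils by their transcripts. It was taken as every cell with the value 2 in the deposited cluster annotation, which gave 270 of 1421 cells, against 672 cells of cluster 0 and 479 of cluster 1. Peripheral blood (PB) of mice given lipopolysaccharide (LPS) supplied 269 of the 270 cells, and bone marrow (BM) of an LPS-treated mouse supplied the remaining cell. The 10 genes taken as neutrophil identity markers, among them S100a8 and S100a9, summed to 291196 to 352859 CPM (UMIs of a gene per 1000000 UMIs of the cells summed) in its plates, above the 122463 to 175168 CPM of PBS-primed PB cells of cluster 1 and overlapping with the 294345 to 404309 CPM of BM cells of cluster 0. S100a8 and S100a9 gave most of this sum, and the members differed. Of the 10, 3 were at least 2-fold higher than in cluster 1 (9.15% of all genes counted) and 1, Csf3r, at least 2-fold lower (49.5%). None was at least 2-fold higher than in cluster 0 (12.7%), and 3, Ly6g, Mmp9 and Itgam, were at least 2-fold lower (37.6%). The clusters were built from the same counts that are described here, so levels in cluster 2 against the other clusters are given as a description without a test.

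Donor mice received PBS or LPS by intraperitoneal injection, the latter at 0.5 mg/kg. Sample titles mark the PBS samples as 0 h and the LPS samples as 4 h, while the study's methods describe preparation 4 h after either injection. Neutrophils were enriched from PB and BM with an enrichment kit, picked cell by cell with a mouth pipette and sequenced by SCRB-seq, in which each cell carries a barcode and each captured RNA molecule a unique molecular identifier (UMI). The 4 groups are PBS-primed PB, LPS-primed PB, PBS-primed BM and LPS-primed BM neutrophils, with 2 labelled samples in each. The study describes its mice in general as males of 7 to 12 weeks on a C57BL/6J background, and the labels do not state genotype or number of donors for these samples.

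Cells came in 2 batches, and LPS-primed PB neutrophils differed between them in the share of cluster 2. Batch 6 placed 185 of 186 LPS-primed PB cells in cluster 2, and batch 7 placed 84 of 177 there. The labelled samples are found in batch 7 alone, and the cells of batch 6 are known by group and plate only. Values are therefore given for 4 sets of cluster 2 cells, each from a single labelled sample or plate: sample 1 with 42 cells, sample 2 with 42 cells, batch 6 plate p1 with 94 cells and batch 6 plate p2 with 91 cells. Cluster 1 was read in the same way in 4 plates of PBS-primed PB and, for cells after LPS, in the 2 labelled LPS-primed PB samples with 48 and 35 cells, and cluster 0 in 9 plates of BM. Plates with fewer than 20 cells of a cluster were left out of these sets, which left out 17, 55 and 1 cells of clusters 0, 1 and 2. The table holds 95 cell barcode labels, 93 of which occurred in 2 or more plates of cluster 2, so a barcode identifies a cell only together with its plate.

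Neutrophils are short-lived phagocytes that mature in the marrow, fill their granules there and are released into blood. LPS, a component of the outer membrane of Gram-negative bacteria, is sensed through CD14 and Toll-like receptor 4, from which one branch of signalling activates NF-kB and another leads to type I interferon. Interferon then induces antiviral genes through a promoter element, the interferon-stimulated response element (ISRE), while NF-kB drives cytokines, chemokines and its own inhibitors through kB elements.

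Of the 6 marker genes of the cluster, 5 are known as interferon-induced and Sod2 as an antioxidant enzyme. Rsad2 encodes viperin, which makes a chain-terminating nucleotide, Ifit1 and Ifit3 encode proteins of the antiviral IFIT family, Isg20 encodes an exonuclease, Gbp2 a guanylate-binding protein, and Sod2 the mitochondrial superoxide dismutase. On mm9 they lie on chromosome 12 (Rsad2, 27127618 to 27141317, minus strand), chromosome 19 (Ifit1, 34715361 to 34724499, and Ifit3, 34658021 to 34663221, plus strand), chromosome 7 (Isg20, 86058310 to 86065248, plus strand), chromosome 3 (Gbp2, 142283566 to 142300972, plus strand) and chromosome 17 (Sod2, 13200705 to 13210985, plus strand). Promoters of 300 bases, from 250 bases before to 50 bases after each RefSeq start site on GRCm38.p6, were searched on both strands for an ISRE core, spelled GAAA, any 2 bases and GAAA, and for a kB core, spelled GGGA, any 2 bases and TTCC. The 30-base windows that hold a match are printed on the strand of the gene, with the matched letters, or their reverse complement, in capitals, for the markers and for Cxcl10 and Nfkbia, to which the results return.
Rsad2 ISRE, chr12:26456553-26456582, minus strand: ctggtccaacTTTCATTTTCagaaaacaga
Ifit1 ISRE, chr19:34640785-34640814, plus strand: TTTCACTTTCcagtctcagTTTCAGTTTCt
Ifit3 distal ISRE, chr19:34583363-34583392, plus strand: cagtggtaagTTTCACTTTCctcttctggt
Ifit3 proximal ISRE, chr19:34583397-34583426, plus strand: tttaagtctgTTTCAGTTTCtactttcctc
Gbp2 ISRE, chr3:142620594-142620623, plus strand: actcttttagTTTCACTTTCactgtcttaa
Gbp2 kB, chr3:142620660-142620689, plus strand: gcaaaaatctGGAACTTCCCgggttactac
Isg20 kB, chr7:78913646-78913675, plus strand: cagaagttgtGGGACCTTCCccaggctcca
Cxcl10 ISRE, chr5:92349083-92349112, minus strand: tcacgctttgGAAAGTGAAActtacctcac
Cxcl10 kB, chr5:92349029-92349058, minus strand: agaggggagaGGGAAATTCCaagttcatgg
Nfkbia kB, chr12:55492657-55492686, minus strand: tgactggcttGGAAATTCCCcgcgcctgac

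The ISRE letters stood in the promoters of 4 of the 6 markers and the kB letters in 2, and the Sod2 window held neither. Of all 27025 genes with a promoter, 4.0% held the ISRE letters in at least 1 promoter and 1.6% the kB letters. Among all 32851 promoters, the shares were 3.44% and 1.47%. For Isg20 the kB letters stood in the promoter whose window is printed and not in its others. The ISRE letters stood in 12 of 20 interferon-induced antiviral genes with a promoter in the table and in 9 of 10 interferon-induced GTPase genes, against 1 of 10 cytokine and chemokine genes. The kB letters stood in 4 of 10 cytokine and chemokine genes, but in 2 of 15 NF-kB feedback and target genes, 3 of 20 antiviral genes and 2 of 10 GTPase genes, so they did not divide the lists as the ISRE letters did. Gbp2 and Cxcl10, an interferon-inducible chemokine, held both, and Nfkbia, the inhibitor of NF-kB that NF-kB itself induces, held the kB letters. The Il1b promoter, searched in the same way, held neither. A match describes these letters only and no match says nothing about a factor.

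Nearly all cells of the LPS-primed PB plates of batch 6 belonged to cluster 2, 94 of 95 on plate p1 and 91 of 91 on plate p2. In batch 7 the share was 46.2% of the 91 cells of sample 1 (exact 95% binomial interval 35.6 to 56.9%) and 48.8% of the 86 cells of sample 2 (37.9 to 59.9%). The remaining LPS-primed PB cells of batch 7 were mostly cluster 1 cells, 48 in sample 1 and 35 in sample 2. None of 348 PBS-primed PB cells was in cluster 2, so the share could be as high as 0.862%, and none of 439 PBS-primed BM cells was, for which the limit is 0.683%. LPS-primed BM contributed 1 of 271 cells. These intervals and limits cover counting error only.

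**Figure D1:**
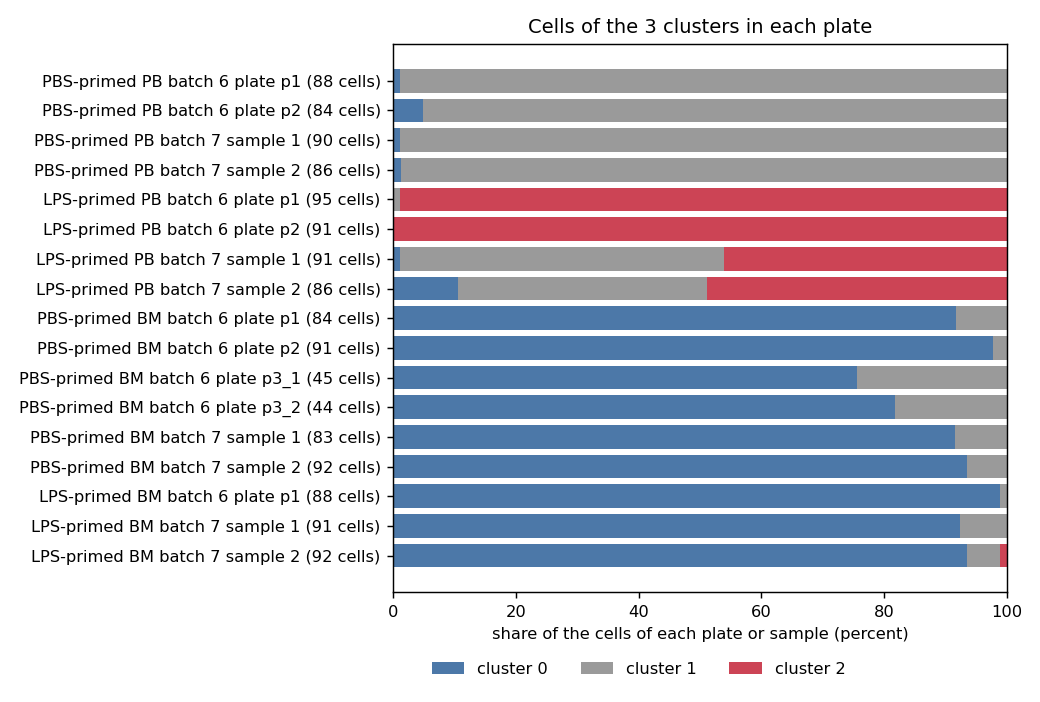
Share of cells in clusters 0, 1 and 2 (percent, horizontal axis) in each plate or labelled sample (rows, with the number of cells). Cluster 2 fills the 2 LPS-primed PB plates of batch 6 and just under 50% of each LPS-primed PB sample of batch 7, and is missing from all PBS-primed plates.

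Levels were UMIs of a gene summed over the cells of a set and scaled to CPM. Rsad2 reached 6854 and 6425 CPM in the cluster 2 cells of samples 1 and 2, and 6164 and 8118 CPM in those of plates p1 and p2. PBS-primed PB cells of cluster 1 held 243 to 671 CPM of Rsad2 and BM cells of cluster 0 held 55.1 to 206 CPM. The LPS-primed PB cells that stayed in cluster 1 lay between, with 3446 CPM in sample 1 and 1716 CPM in sample 2. No set of cluster 2 overlapped with a set of the other clusters.

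The other markers showed the same order. Ifit1 was at 3659, 4081, 2652 and 4093 CPM in the 4 sets of cluster 2 (in the order sample 1, sample 2, plate p1, plate p2), 1726 and 1324 CPM in LPS-primed PB cells of cluster 1, 95.6 to 224 CPM in PBS-primed PB cells and 2.12 to 125 CPM in BM cells. Isg20 was at 3188, 2835, 2559 and 2691 CPM in cluster 2 and at most 977 CPM elsewhere. Gbp2 was at 2069, 2386, 1646 and 1955 CPM against at most 923 CPM, and Ifit3 at 2200, 1840, 1537 and 2053 CPM against at most 709 CPM. Cluster 2 did not overlap with any other set for these genes, and cluster 1 cells after LPS were nearest to cluster 2 for each of them.

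Sod2 was at 1512 and 1603 CPM in the cluster 2 cells of samples 1 and 2, and at 1030 and 879 CPM in plates p1 and p2. LPS-primed PB cells of cluster 1 held 378 and 138 CPM, PBS-primed PB cells 10.1 to 59.7 CPM and BM cells 1.63 to 62.6 CPM. Sod2 thus had the largest ratio of the 6 markers to cluster 1, with a log2 ratio of 3.51 after adding 1 CPM, against 2.54 for Rsad2. In batch 6 alone Isg20 had the larger ratio, 4.79 against 4.74 for Sod2. Within the same sample, cluster 2 cells exceeded cluster 1 cells by a log2 ratio of 2.00 and 3.53 for Sod2 and of 0.99 and 1.90 for Rsad2, in samples 1 and 2. For Rsad2 the log2 ratio was 2.18 in batch 7 alone and 3.54 in batch 6 alone, where all sets of cluster 1 were PBS-primed.

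**Figure D2:**
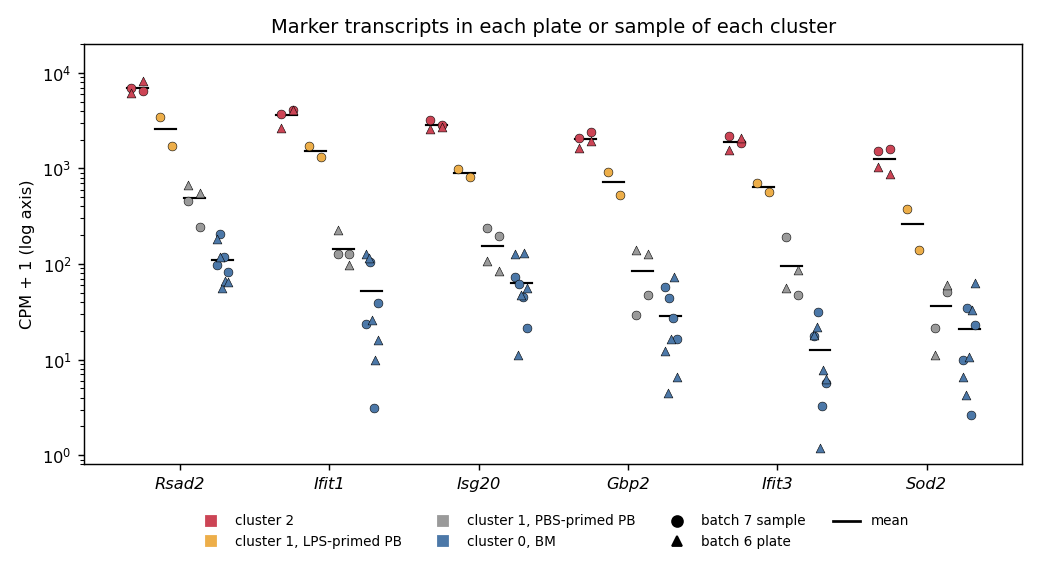
CPM plus 1 of the 6 markers (log axis) in each plate or sample of cluster 2, of cluster 1 after LPS or PBS and of cluster 0, with circles for batch 7, triangles for batch 6 and bars for the mean. For Rsad2 the 4 sets of cluster 2 lie between 6164 and 8118 CPM, cluster 1 cells after LPS at 1716 and 3446 CPM and all other sets under 672 CPM.

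The labelled samples allow a test of the groups that does not use the clusters. UMIs were summed over all cells of each of the 8 samples and fitted with edgeR's quasi-likelihood test, with p-values adjusted over 8478 genes by the method of Benjamini and Hochberg. Against PBS-primed PB neutrophils 294 genes were higher and 40 lower in LPS-primed PB neutrophils, so the background of higher calls is 3.47%, and against the mean of the 3 other groups 527 were higher and 65 lower, backgrounds of 6.22% and 0.767%. The direction depends on the scaling, since scaling by library size, without TMM, gave 140 higher (1.65%) and 268 lower genes (3.16%) within PB, and 298 (3.51%) and 218 (2.57%) against the 3 other groups. Both comparisons use the same LPS-primed PB samples and share the PBS-primed PB samples. Nothing in the labels says that the 2 samples of a group came from separate mice, so these p-values measure the spread between the samples, and a larger share of responding cells cannot be told apart from more RNA per responding cell.

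All 6 markers were higher in LPS-primed than in PBS-primed PB neutrophils, with no change of direction under library size scaling. The 6 are markers of cluster 2, whose cells made up 46.2% and 48.8% of the 2 LPS-primed PB samples and of no PBS sample. The test does not use the clusters, but this choice of genes does, so their rise is no separate support for the cluster. Gbp2 had the largest fold change, with 1558 and 1786 CPM in the LPS samples against 28 and 45.4 CPM in the PBS samples (log2 fold change 6.43, SE 0.60, edgeR adjusted p = 0.0001129). Sod2 rose from 20.2 and 49.1 CPM to 1013 and 1133 CPM (log2 fold change 5.88, SE 1.08, edgeR adjusted p = 0.011). Rsad2 rose by 4.78 (SE 0.50, edgeR adjusted p = 0.000262) and Isg20 by 4.27 (SE 0.35, edgeR adjusted p = 5.057e-05) on the log2 scale. Ifit1 and Ifit3 rose by 5.49 and 4.55, with edgeR adjusted p = 0.01406 and 0.01431. The calls of Ifit1, Ifit3 and Sod2 rested on both PBS samples. Without PBS-primed PB sample 1 the adjusted p was 0.1682 for Ifit1 and 0.1537 for Sod2, and without sample 2 it was 0.1867 for Ifit1, 0.1434 for Ifit3 and 0.108 for Sod2. The log2 fold changes stayed high without either sample, at 5.45 and 5.43 for Ifit1, 5.89 and 3.82 for Ifit3, and 5.31 and 6.60 for Sod2.

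To ask whether single cells hold the markers together, each cell was thinned at random to 5000 UMIs, which kept every cell. Of 270 cluster 2 cells, 183 still held all 6 markers and 249 held 5 or 6. The 6 are markers of a cluster built from these same counts, so these numbers are a description and no test. The share with all 6 was 76.2% and 69% in samples 1 and 2 and 74.5% and 57.1% in plates p1 and p2. PBS-primed PB cells of cluster 1 held a median of 1 marker and none of 341 cells held more than 4. BM cells of cluster 0 held a median of 0, and 1 of 655 held 5. The 84 LPS-primed PB cells of cluster 1 spread from 2 to 6 markers with a median of 4, and 11 of them held all 6. Within the sets of cluster 2 each marker was found in 82.9% to 99.6% of cells. The share of cells with both members of a pair thus had little room to differ from the product of the single shares. The comparison with that product therefore cannot decide whether markers vary together from cell to cell. Rsad2 and Ifit1 were both found in 95.5% of cells, against a product of 95.6%. The widest gap among the marker pairs was that of Ifit3 with Gbp2, 84.8% against 83.6%.

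At this depth Rsad2 was found in 99.6% of cluster 2 cells, against 91.7% of LPS-primed PB cells of cluster 1, 39% of PBS-primed PB cells and 19.2% of BM cells of cluster 0. Sod2 was found in 82.6% of cluster 2 cells, 51.2% of cluster 1 cells after LPS, 7.04% of PBS-primed PB cells and 2.75% of BM cells. The LPS-primed PB cells outside cluster 2 thus held the same transcripts in a smaller share of cells and at a lower level.

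**Figure D3:**
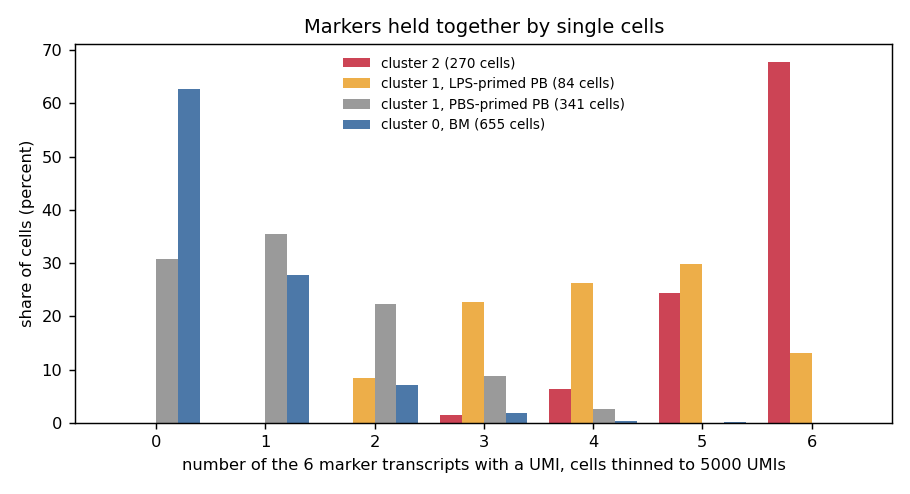
Share of cells (percent) by the number of the 6 marker transcripts with at least 1 UMI after thinning each cell to 5000 UMIs, for cluster 2, cluster 1 after LPS or PBS and cluster 0 of BM. Cluster 2 peaks at 6 markers, cluster 1 cells after LPS at 5, PBS-primed PB cells at 1 and BM cells at 0.

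The most abundant transcripts of cluster 2 were those of a neutrophil. S100a8 and S100a9, the subunits of calprotectin, together made up 26.23% of its UMIs, and the 15 most abundant genes made up 45.89%. S100a8 was at 143494 to 174895 CPM, near the 149080 to 224075 CPM of BM cells and above the 65130 to 97492 CPM of PBS-primed PB cells. Then came Fth1, the ferritin heavy chain that stores iron, Lcn2, the siderophore-binding lipocalin of secondary granules, Retnlg, a resistin-like protein of neutrophils, and Ngp, a cathelicidin-related granule protein. Tmsb4x, which binds actin monomers, Slfn4, a myeloid gene induced by interferon, the nuclear non-coding RNA Malat1, Actb, Ifitm3, which blocks virus entry, Wfdc21, B2m, the light chain of class I molecules, the granule proteoglycan Srgn and Rsad2 completed the 15.

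Among these 15, Fth1, Lcn2, Slfn4, Ifitm3, Wfdc21 and Rsad2 were higher in every set of cluster 2 than in every set of the other clusters. Fth1 was at 48019, 41626, 46762 and 37610 CPM in the 4 sets of cluster 2, 20654 and 15871 CPM in cluster 1 cells after LPS, 7785 to 9952 CPM in PBS-primed PB cells and 2180 to 4277 CPM in BM cells. Lcn2 was at 24500 to 39045 CPM against 11413 to 20746 CPM in BM and 1122 to 1637 CPM in PBS-primed PB. Tmsb4x was lower, at 8554 to 17275 CPM against 31582 to 41280 CPM in PBS-primed PB cells.

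A few very abundant transcripts move the CPM of every other gene, so the scale has to be read with the folds. Of 5189 genes with a mean of at least 10 CPM over the 3 clusters, the median log2 ratio of cluster 2 was -0.99 to cluster 1 and -0.61 to cluster 0. After TMM scaling of the sets, which centres most genes, these medians were -0.12 and -0.16. A ratio on the CPM scale near the median is thus no difference from the bulk of genes. In CPM, 475 genes (9.15%) were at least 2-fold higher than in cluster 1 and 2567 (49.5%) at least 2-fold lower, and with TMM scaling 1022 (19.7%) and 1321 (25.5%). Against cluster 0, 659 genes (12.7%) were at least 2-fold higher and 1949 (37.6%) at least 2-fold lower in CPM, and with TMM scaling 991 (19.1%) and 1356 (26.1%). In CPM 282 genes (5.43%) were at least 2-fold above both clusters, among them all 6 markers. Cluster 2 cells exceeded the cluster 1 cells of both of their own samples for 1015 genes (19.6%), again with all 6 markers among them, and were lower in both for 2027 (39.1%).

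Of 677 genes at 100 CPM or more in every set of cluster 2, 58 were at least 4-fold above both other clusters, and 110 after TMM scaling. The 15 largest ratios belonged to Fcgr1, the high-affinity IgG receptor, Saa3, an acute-phase serum amyloid, Lipg, endothelial lipase, the interferon-inducible genes Ifi211, Ifi209, Ifi47, Ifit2, Xaf1 and Bst2, the latter a tether of budding virus, Sod2, Cxcl10, Ikbke, a kinase upstream of interferon, Ube2l6, the conjugating enzyme for ISG15, Zbp1, a sensor of Z-form nucleic acid, and Thbs1, thrombospondin-1. Fcgr1 was at 197, 174, 220 and 186 CPM in cluster 2, at 6.55 and 13.7 CPM in cluster 1 cells after LPS and at most 5.47 CPM in the other sets. Lipg was at 657, 845, 429 and 548 CPM against 122 and 53.4 CPM in cluster 1 cells after LPS. Both differed by less than 2-fold over the 4 sets, although in 1 set 2 cells alone held 65.8% of the UMIs of Fcgr1. Saa3 varied more, with 290, 1797, 220 and 2585 CPM, and in 1 set 2 cells held 88.1% of its UMIs.

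The interferon-induced antiviral list was high almost as a whole. Of 25 members with a mean of at least 10 CPM over the 3 clusters, 21 were at least 2-fold above cluster 1, against 9.15% of all genes. Against cluster 0, 24 were at least 2-fold higher (12.7% of all genes). The median log2 ratios were 2.10 and 4.29. Mx1, left out by this filter, was lower in cluster 2 than in cluster 1, at means of 0.81 and 4.04 CPM. Mx2 passed it through cluster 2, with means of 30 CPM there and 4.72 and 0.0381 CPM in clusters 1 and 0. Isg15, a ubiquitin-like modifier, was at 980, 920, 622 and 395 CPM, against 330 and 338 CPM in cluster 1 cells after LPS, and plate p2 came close to them. Herc6, a ligase of the same system, was at 495 to 620 CPM in cluster 2 and 3.34 to 474 CPM over the sets of cluster 1. Oasl2, of the oligoadenylate synthetase family, did not mark the cluster against other LPS-primed cells, at 728 to 905 CPM against 1081 and 1314 CPM in cluster 1 cells after LPS. Slfn1 was lower than in PBS-primed PB cells, at 460 to 640 against 888 to 1176 CPM, but its ratio vanished under TMM scaling (0.01). In the labelled samples 20 of 24 members tested rose within PB (3.47% of all genes) and 23 of 24 rose against the 3 other groups (6.22%). With library size scaling 16 of 24 rose within PB and 1 fell, against 1.65% and 3.16% of all genes.

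The interferon-induced GTPases act on the vacuoles of intracellular pathogens. Of 10 members with enough counts, 9 were at least 2-fold above cluster 1, against 9.15% of all genes. All 10 were at least 2-fold above cluster 0, against 12.7%. Enough counts means a mean of at least 10 CPM over the 3 clusters, which Gbp5 and Tgtp2 reached through cluster 2 alone. Gbp4 and Iigp1, which were left out, had log2 ratios to cluster 1 of -0.54 and -1.23 in CPM. With TMM scaling these were 0.40 and -0.57. Gbp5 was at 176, 80.2, 43 and 92.8 CPM in cluster 2 and at most 0.442 CPM in PBS-primed PB and BM sets. Cluster 1 cells after LPS held a mean of 26 and at most 34.6 CPM of Gbp5, and plate p1 came close to them. Ifi47 was at 1041 to 1711 CPM against 602 and 122 CPM in cluster 1 cells after LPS. Irgm2 was close to cluster 1, with a log2 ratio of 0.14. In the labelled samples 7 of 12 members tested rose within PB (3.47% of all genes), 4 of 12 with library size scaling (1.65%), and 9 of 12 against the 3 other groups (6.22%). Among the transcription factors of the pathway, Irf7 was at 1171 to 1496 CPM against 904 and 591 CPM in cluster 1 cells after LPS and 181 to 291 CPM in PBS-primed PB cells, whereas Irf1 at 263 to 403 CPM overlapped with cluster 1. Within PB, 3 of 7 factors tested rose (Irf7, Irf9 and Stat2), against 3.47% of all genes.

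Cytokines and chemokines divided into transcripts that were highest in cluster 2 and transcripts that PBS-primed PB cells held at a higher level. Cxcl10 was at 3171 and 2953 CPM in samples 1 and 2 and at 876 and 1252 CPM in plates p1 and p2, against 817 and 296 CPM in cluster 1 cells after LPS and at most 20.2 CPM in all other sets. Il1rn, the interleukin-1 receptor antagonist, was at 3097, 2743, 2855 and 3048 CPM, against 1575 and 1164 CPM in cluster 1 cells after LPS and 316 to 508 CPM in PBS-primed PB cells. Il1b, the cytokine it opposes, was lower in cluster 2, at 2710, 2420, 2443 and 2608 CPM, than in cluster 1 cells after LPS (4803 and 4321 CPM) and in PBS-primed PB cells (5550 to 8780 CPM). BM cells held 42.6 to 305 CPM of Il1b. The log2 ratio of Il1b to cluster 1 was -1.34 in CPM and -0.44 with TMM scaling, so the gap to the median gene was small.

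After thinning, Il1b was found in 77.8% of cluster 2 cells and in 97.7% of PBS-primed PB cells, and Il1rn in 97.4% and 44%. With TMM scaling the labelled samples gave the rise of Il1rn but no fall of Il1b. Il1rn rose within PB (log2 fold change 3.44, edgeR adjusted p = 0.0001009) while Il1b had a log2 fold change of 0.03 (SE 0.20, edgeR adjusted p = 0.9836). The chemokines Ccl4 and Ccl3, which attract monocytes and T cells, and Cxcl2, which attracts neutrophils, were at 644 to 2348, 501 to 726 and 688 to 969 CPM in cluster 2. Of them, Cxcl2 and Ccl3 in cluster 2 stayed above every other set (at most 515 and 368 CPM), and Ccl4 in plate p2 (644 CPM) lay under the highest PBS-primed PB set (792 CPM). Tnf was low, at 118 to 194 CPM, and did not pass the test within PB (edgeR adjusted p = 0.09093). In all, 6 of 9 members with enough counts were at least 2-fold above cluster 1, against 9.15% of all genes. Of 12 tested 5 rose within PB, against 3.47%.

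Some inhibitors of NF-kB and of cytokine signalling were high in cluster 2 and others were not. Nfkbia was at 3719, 2904, 2608 and 2795 CPM against 1570 and 618 CPM in cluster 1 cells after LPS, 349 to 448 CPM in PBS-primed PB cells and 130 to 341 CPM in BM. Irak3, which blocks signalling from Toll-like receptors, was at 305 to 480 CPM against at most 134 CPM elsewhere. Socs1, which restrains interferon signalling, was at 240, 185, 198 and 78.8 CPM against at most 35.7 CPM in cluster 1, whereas Socs3, which restrains interleukin-6 and G-CSF signalling, was lower in cluster 2 (206 to 472 CPM) than in cluster 1 cells after LPS (913 and 822 CPM). Nfkbiz and Zc3h12a, which modulate NF-kB targets and degrade cytokine transcripts, had log2 ratios of 0.01 and 0.64 to cluster 1. Of 17 members with enough counts 12 were at least 2-fold above cluster 1, against 9.15% of all genes. Tnfaip2 alone was at least 2-fold below it in CPM, against 49.5% of all genes. With TMM scaling no member was, against 25.5%. In the labelled samples 5 of 18 rose within PB (3.47% of all genes), among them Nfkbia (log2 fold change 3.42, edgeR adjusted p = 8.101e-06), and 13 of 18 rose against the 3 other groups (6.22%). With library size scaling 3 of 18 rose within PB and 1 fell, against 1.65% and 3.16% of all genes.

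Among genes of LPS sensing, the co-receptor Cd14 was high in cluster 2 while the receptor Tlr4 was not. Cd14 was at 1743, 1809, 1248 and 1069 CPM against 451 and 552 CPM in cluster 1 cells after LPS and at most 128 CPM in the rest. Tlr4 was at 41.4 to 96.8 CPM and overlapped with cluster 1 (33.6 to 122 CPM). Clec7a, the receptor dectin-1 for fungal glucans, was lower in cluster 2 (37.7 to 241 CPM) than in all sets of cluster 1 (877 to 1816 CPM). BM cells were as low, at 55.3 to 230 CPM of Clec7a. The formyl peptide receptors Fpr1 and Fpr2 were at 741 to 1105 and 979 to 1618 CPM, above all cluster 1 sets. BM cells overlapped with cluster 2 for both, at 390 to 808 and 486 to 1292 CPM. Of 11 members 6 rose within PB, against 3.47% of all genes. With library size scaling 2 of 11 rose and 1 fell, against 1.65% and 3.16% of all genes.

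Among antioxidant and iron genes the cluster was uneven. Beside Sod2 and Fth1, Acod1, which makes itaconate, was at 1276, 993, 602 and 691 CPM against 676 and 296 CPM in cluster 1 cells after LPS, and Prdx5, a mitochondrial and peroxisomal peroxiredoxin, was at 2884 to 3345 CPM against 623 to 1513 CPM in cluster 1. BM cells held 1688 to 2929 CPM of Prdx5 and so overlapped with cluster 2. Sod1, the cytosolic dismutase, was at 70.4 CPM in sample 1 and 3.33 to 8.3 CPM in the other sets. Ftl1, the ferritin light chain, was at 2294 to 2861 CPM, under every set of cluster 1 (4978 to 11338 CPM), while Fth1 was above all of them, so the heavy to light balance of ferritin transcripts differed. Gpx1, a cytosolic glutathione peroxidase, was at 295 to 651 CPM against 1083 to 1595 CPM in cluster 1. Under TMM scaling the log2 ratios of Ftl1 and Gpx1 to cluster 1 were -0.65 and -0.69. In the labelled samples 5 of 14 members rose within PB, against 3.47% of all genes, and Ftl1 did not pass (log2 fold change -0.44, edgeR adjusted p = 0.1378).

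Among granule transcripts, Ltf and Camp lay between PBS-primed PB and BM, while others reached or passed BM levels. Ltf, the iron-binding lactoferrin, was at 1936, 2813, 5281 and 4692 CPM, far above the 4.96 to 120 CPM of PBS-primed PB cells and under the 8026 to 13844 CPM of BM cells. Camp, cathelicidin, was at 4944 to 7469 CPM, against 17.7 to 241 CPM in PBS-primed PB and 13192 to 23346 CPM in BM. Ngp was at 12861 to 24048 CPM against 29.0 to 450 CPM and 20709 to 38388 CPM. The cluster 1 cells after LPS again lay between, with 748 and 207 CPM of Ltf and 1436 and 390 CPM of Camp. Chil3, a chitinase-like lectin, and Cybb, the catalytic subunit of the phagocyte oxidase, overlapped with BM, at 1907 to 7680 and 2398 to 3787 CPM, and Lcn2 was above every BM set.

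Of 11 secondary and tertiary granule genes 9 were at least 2-fold above cluster 1, against 9.15% of all genes. Hp was at least 2-fold above cluster 0 and 3 were at least 2-fold below it, a share no larger than the 37.6% of all genes. With TMM scaling these 3, Ltf, Camp and Mmp9, were still at least 2-fold below cluster 0, against 26.1% of all genes. In the labelled samples 9 of 11 rose within PB (3.47% of all genes), with a log2 fold change of 8.90 for Ltf (edgeR adjusted p = 3.784e-07), and Mmp9, a gelatinase of tertiary granules, did not (edgeR adjusted p = 0.884). Transcripts of primary granules, which immature precursors make, were too low to be kept in any list count (Mpo, Elane, Prtn3 and Ms4a3). Ly6g, the surface antigen of mature mouse neutrophils, was at 224 to 341 CPM, against 785 to 1112 CPM in BM and 10.2 to 442 CPM over the sets of cluster 1.

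Of the transcripts listed for resting PB neutrophils, Fos, Csf3r and Ccl6 were far lower in cluster 2 than in cluster 1. BM cells of cluster 0 overlapped with cluster 2 for Fos and Csf3r, at 94.9 to 655 and 568 to 1863 CPM, and held 570 to 1247 CPM of Ccl6. Fos, an immediate early factor, was at 115 to 279 CPM against 3583 to 8578 CPM in PBS-primed PB cells and 1243 and 1587 CPM in cluster 1 cells after LPS. Csf3r, the receptor for G-CSF, was at 688 to 1299 CPM against 4801 to 7052 CPM over the sets of cluster 1, and Ccl6, a chemokine of myeloid cells, at 66.1 to 311 against 1479 to 3600 CPM. Of 12 members 7 were at least 2-fold lower than in cluster 1 in CPM and 5 with TMM scaling, against 49.5% and 25.5% of all genes, so the share in CPM was near the background. Only Fos fell within PB among the 12 (log2 fold change -1.62, SE 0.39, edgeR adjusted p = 0.04723, against a background of 0.472% of genes lower), while 2 rose (3.47%). With library size scaling 4 fell and 1 rose, against 3.16% and 1.65% of all genes.

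The largest ratios in the other direction, among 1452 genes at 100 CPM or more in cluster 1, were those of Cd300c2, an activating receptor of myeloid cells, Kif23, a mitotic kinesin, Itga4, the alpha 4 integrin, Gng11, a G protein subunit, Pnn, Tsc22d1, Arl4c, Tspan2, Gm2a, the activator of ganglioside breakdown, and Ctla2a. Cd300c2 was at 0.999 to 2.90 CPM in cluster 2, at 182 and 146 CPM in cluster 1 cells after LPS and at 175 to 346 CPM in PBS-primed PB cells. Itga4 was at 0.67 to 6.01 CPM against 51.3 and 77.6 CPM in cluster 1 cells after LPS and 201 to 302 CPM in PBS-primed PB cells. Both were thus low in cluster 2 even against cells of the same samples. Gng11 ranged from 106 to 927 CPM in PBS-primed PB, where platelet transcripts also ranged widely (summed over 5 genes, 302 to 2830 CPM, against 1.68 to 143 CPM in cluster 2), and the part of platelet RNA in this ratio was not tested.

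Among genes of class I antigen presentation, Psme2, Psmb8 and Tap1 lay above all sets of cluster 1. Psme2 and Psmb8, parts of the proteasome activator and the immunoproteasome, were at 845 to 1017 and 631 to 896 CPM against at most 397 and 375 CPM in cluster 1. Tap1, the peptide transporter, was at 365 to 570 CPM against at most 352 CPM. Psme1 and Psmb9, the partner subunits, overlapped with cluster 1 at 154 to 264 and 108 to 357 CPM against up to 184 and 249 CPM, as did H2-D1, a class I heavy chain. Tap2, the other chain of the transporter, had a log2 ratio of -0.34. Of 11 members 5 were at least 2-fold above cluster 1 and 9 above cluster 0, against 9.15% and 12.7% of all genes. Within PB 7 of 11 rose, against 3.47%. Among 7 cell death genes, Casp1 and Casp4, the inflammatory caspases, rose within PB (log2 fold changes 2.48 and 2.95, edgeR adjusted p = 0.01184 and 0.02296), but neither passed with library size scaling. Nlrp3, the inflammasome sensor, was at 7.71 to 34.5 CPM in cluster 2 against 101 to 337 CPM in PBS-primed PB cells. Low Nlrp3 was not particular to cluster 2. Cluster 1 cells after LPS held a mean of 41.3 CPM with a lowest set of 34.2 CPM, and BM cells held 5.96 to 27 CPM, so both overlapped with cluster 2. Of the list of coagulation and fibrinolysis genes, which also holds the lipase Lipg, 3 of 7 tested rose within PB (3.47% of all genes), 2 of 7 with library size scaling (1.65%). They were Thbs1, Plaur, the urokinase receptor, and Lipg, the last of which acts on lipoproteins. Thbs1 was at 1925, 3472, 2027 and 1732 CPM in cluster 2, and at 706 and 137 CPM in cluster 1 cells after LPS.

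Cells of cluster 2 yielded more UMIs than other PB cells. The median per cell was 86255.5 and 71938.5 UMIs in samples 1 and 2 and 117389 and 87908 in plates p1 and p2, against 42450.5 and 37073 UMIs in the cluster 1 cells of the same LPS-primed PB samples and 32292 to 63303.5 in PBS-primed PB. BM sets of cluster 0 spanned 44145 to 129816 UMIs. Single cells of cluster 2 ranged from 5602 to 435919 UMIs. Median genes per cell were 1770.5 to 2223 in cluster 2 and 1516 to 2114 in PBS-primed PB. At 5000 UMIs per cell the medians were 601 to 727.5 genes in cluster 2, 686 and 770 genes in cluster 1 cells after LPS and 649.5 to 801 genes in PBS-primed PB, so the gene numbers overlapped once depth was made equal.

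The deposited ratio of ERCC spike-ins, artificial RNAs added to each cell, moved with the clusters. Its median was 0.453 and 0.40 in the cluster 2 cells of samples 1 and 2 and 0.405 and 0.398 in plates p1 and p2. It was 0.586 and 0.58 in the cluster 1 cells of the same LPS-primed PB samples, 0.596 to 0.664 in PBS-primed PB and 0.381 to 0.464 in BM. Cluster 2 therefore lay with BM and did not overlap with any PB set of cluster 1. The denominator of the ratio is not given in the sources used here. Depth and spike-in ratio thus moved with the clusters of PB cells, and their part in the CPM ratios was not tested, while the shares of cells after thinning used equal depth.

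**Figure D4:**
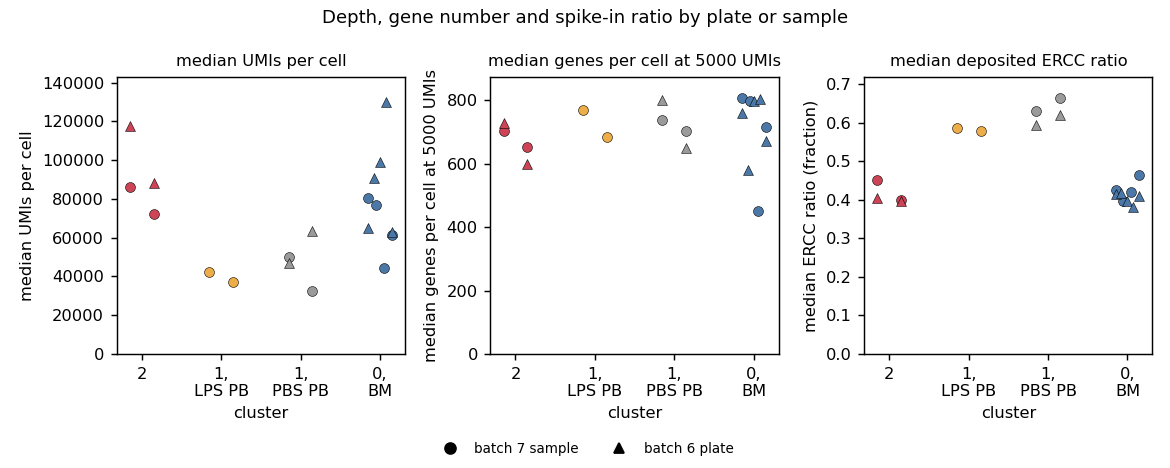
Median UMIs per cell, median genes per cell at 5000 UMIs and median deposited ERCC ratio (vertical axes from 0) in each plate or sample of cluster 2, of cluster 1 after LPS or PBS and of cluster 0 of BM. The 4 sets of cluster 2 have ERCC ratios of 0.398 to 0.453, under the 0.58 to 0.664 of all cluster 1 sets, and gene numbers at equal depth overlap.

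Which transcripts occur together was asked for 25 genes of the LPS response within each of the 4 sets of cluster 2, by Spearman's rank correlation over cells of log2(CPM + 1), with the median over the sets. These genes were chosen with earlier results of these data known. Of the 24 with a mean of at least 10 CPM, 21 were at least 2-fold higher in cluster 2 than in cluster 1, against 9.15% of all genes. Il1b was at least 2-fold lower in CPM, against 49.5% of all genes. The log2 ratios of Socs3 and Clec4e, a receptor for mycobacterial lipid, were -0.83 and 0.16. Cells of a set share plate, library and range of depth, so the correlations are descriptive. Of 300 pairs 272 had a positive median, against 9610 of 15753 pairs of the 178 genes at 500 CPM or more in every set. In every set 188 of the 300 were positive. Those background pairs had a median of 0.03 with a 5th to 95th percentile of -0.20 to 0.25. They are pairs of abundant genes, whereas the list also holds genes of lower level, such as Gbp5 and Tnf at means of 98 and 139 CPM.

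The strongest pair was Il1b with Nfkbia, with rho of 0.62, 0.41, 0.57 and 0.57 in the 4 sets. Rsad2 with Ifit1 came next (0.54, 0.54, 0.48 and 0.65) and then Ccl3 with Nfkbia (0.55, 0.49, 0.56 and 0.34). Pairs of 9 interferon genes had a median rho of 0.29, pairs of 11 cytokine and NF-kB genes 0.27, and pairs that joined both groups 0.18. Most joined pairs, 86 of 99, had a positive median. Cxcl10 had a median rho of 0.32 with the interferon genes and 0.33 with the cytokine and NF-kB genes, and Nfkbia correlated with Ifit1 at 0.485.

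Sod2 was the marker with the weakest relation to the other 5. Its rho was 0.00, 0.15, 0.07 and -0.04 with Rsad2, 0.19, 0.01, -0.09 and -0.12 with Ifit1 and 0.08, -0.04, -0.01 and -0.01 with Gbp2, whereas these 3 genes correlated with each other at medians of 0.43 to 0.54. Over all 9 interferon genes its median rho was 0.02, and over the 11 cytokine and NF-kB genes 0.14. Some of the latter differed by batch. With Cxcl2 its rho was 0.34 and 0.39 in samples 1 and 2 and 0.12 and -0.10 in plates p1 and p2, and with Nfkbia 0.36 and 0.31 against 0.03 and -0.10. With Cd14 it was 0.20, 0.47, 0.16 and -0.02. With Acod1 it was 0.34, 0.34, 0.19 and -0.06. Low values were not particular to Sod2: the medians with the interferon and with the cytokine and NF-kB genes were 0.08 and -0.03 for Cmpk2, -0.01 and 0.10 for Il1a, 0.07 and 0.11 for Clec4e, and 0.09 and 0.11 for Tnf. Sod2 was detected in 99.3% of cluster 2 cells at full depth.

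The lowest correlations were small. Cmpk2, a mitochondrial nucleotide kinase next to Rsad2 in the genome, had -0.13, -0.25, -0.14 and -0.21 with Tnfaip3, an inhibitor of NF-kB, and a median of -0.13 with Il1a, which had no UMI in plate p2. Clec4e with Fth1 had a median of -0.11 and ranged from -0.29 to 0.07. These 3 medians lie inside the range of the background pairs. Fth1 in turn correlated with Il1rn at 0.48.

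Levels of many of these 25 genes moved with the spike-in ratio from cell to cell, with a median rho of 0.59 for Il1b, 0.49 for Nfkbia, 0.45 for Cxcl10, 0.41 for Ifit1 and -0.02 for Sod2. A partial rank correlation on UMIs per cell and ERCC ratio, added after the correlations were seen, lowered the median of interferon pairs to 0.24, of cytokine and NF-kB pairs to 0.18 and of joined pairs to 0.10. Rsad2 with Ifit1 was then at 0.46, Il1b with Nfkbia at 0.42 and Sod2 with Ifit1 at -0.08.

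**Figure D5:**
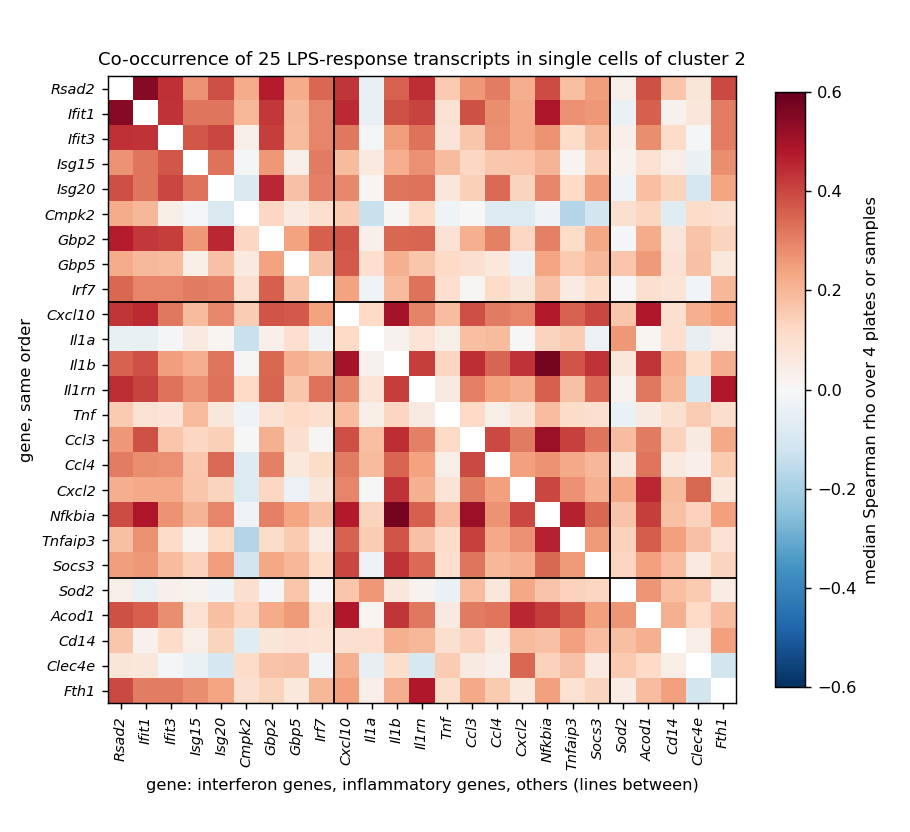
Median Spearman's rho over the 4 sets of cluster 2 (colour, from -0.6 in blue to 0.6 in red) for each pair of 25 genes of the LPS response, ordered as interferon genes, cytokine and NF-kB genes and others. Both large blocks are mostly red and joined by red cells, with Il1b and Nfkbia at 0.57, while the row of Sod2 is near white against the interferon genes.

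The single BM cell of cluster 2 came from LPS-primed BM sample 2 and held 44288 UMIs, 1495 genes and an ERCC ratio of 0.547. It had 9370 CPM of Rsad2 and 12150 CPM of Ifit3, more than any LPS-primed BM cell of cluster 0. It had no UMI of Sod2, Cxcl10 or Il1b, and its 1377 CPM of Lcn2 was lower than in all LPS-primed BM cells of cluster 0. It held 5 of the 6 markers after thinning.

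Markers of other blood cells were low in cluster 2. Of 6 monocyte genes, Ccr2, Cx3cr1 and F13a1 had no UMI in any of the 4 sets and Csf1r was at 10.5 to 23.4 CPM, while Ly6c2, which BM neutrophils also hold at 642 to 1153 CPM, made up most of the summed 846 to 1394 CPM of the list. The 4 B cell genes summed to 0.0838 to 0.556 CPM in 3 sets and to 96.3 CPM in plate p2, where Cd79b gave 78.2 CPM. The T and NK cell genes summed to 1.75 to 43.6 CPM. PBS-primed PB sets of cluster 1 held more of both, 25.7 to 867 CPM of T and NK cell genes and 80.2 to 201 CPM of B cell genes, whose part in low ratios to cluster 1, such as those of Itga4 and Arl4c, was not tested. The 7 hepatocyte genes, among them Alb, which encodes albumin, summed to 752 and 721 CPM in samples 1 and 2 and to 1.93 and 0.107 CPM in the plates of batch 6, and PBS-primed PB cells of batch 7 held more, 1575 and 2532 CPM. All 7 rose in LPS-primed PB samples against the mean of the 3 other groups, which includes BM, while within PB the lowest of their 7 unadjusted p was 0.272, that of Alb (edgeR adjusted p = 0.6125). Their part in other results was not tested.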

How the data were processed

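Single neutrophils were profiled by SCRB-seq. Per the labels and methods, the authors trimmed reads with Cutadapt 1.15, aligned them to mm9 with STAR 2.6.0a, removed duplicate UMIs and counted genes with HTSeq 0.11.2, and deposited a table of UMI counts, with genes in rows and the cells that passed their quality filters in columns. The ERCC ratio is a fraction per cell deposited by the authors, as is the cluster annotation. The gene annotation used for counting is not given in the sources used here. Counts were summed over the cells of a cluster on a plate with at least 20 such cells, and divided by the total to give CPM. Log2 ratios carry 1 added CPM. Cells were thinned to 5000 UMIs for shares. Counts summed per labelled sample (3240559 to 8361677 UMIs over 83 to 92 cells) were fitted with edgeR 4.0.16 (R 4.3.3, TMM, quasi-likelihood), with DESeq2 1.42.0 as an alternative. Python 3.11.15, numpy 2.4.6, pandas 2.3.3, scipy 1.17.1 and matplotlib 3.10.9 were used. The named genes were the 6 markers, the 15 most abundant, the 15 with the largest ratio to the higher of clusters 0 and 1 and the 10 with the largest ratio of cluster 1 to cluster 2, together with members of the gene lists, whose examples were picked after their values were seen. Members and lists were chosen with earlier results of these data known.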

Additional observations from a re-analysis of the deposited data

How the results depend on the processing

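Within PB, 334 genes passed edgeR's test, and 1047 passed with DESeq2. Against the 3 other groups 592 passed, and 1217 with DESeq2. Leaving out each sample in turn gave 146 to 400 and 401 to 582 genes, with 159 and 146 within PB without PBS-primed PB sample 1 and 2. A replicate block gave 374 and 579 genes, but samples with the same number did not deviate together (correlations of -0.0271 to 0.00518), so they share only a number. The 58 genes at least 4-fold above both clusters became 98 in batch 6 alone and 110 with TMM scaling of the sets, and 58 to 65 without 1 set. The median correlation of interferon pairs was 0.234 in thinned counts. With the partial correlation on UMIs and ERCC ratio it was 0.18 for cytokine and NF-kB pairs and 0.096 for joined pairs. Clec4e with Fth1 changed sign in batch 6 alone (0.004). The cause of these shifts was not tested. TMM scaling of the sets, leaving out each plate of batch 6, pooling of cells and the partial correlation were chosen after seeing the data. With 2 samples in a group, and batch 6 known by plate only, the tests rest on batch 7.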
